A study of Mus musculus with 6 samples.

Results

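The ATF4 amino acid response and the cytosolic tRNA synthetases were described here in mouse megakaryocyte-erythroid progenitors, the shared precursors of red cells and platelets, after 6 h without food. The 35 genes were listed by their known roles in the pathway, with earlier results of these data known, and were found by symbol among the 55487 genes of the count table. They comprised 3 transcription factors, 3 ATF4 targets that act on the stress response or on glutathione, and the kinase Eif2ak4. The others were 9 enzymes grouped under amino acid and one-carbon synthesis, 6 amino acid transporters and 13 synthetases. The mice were wild type, of strain C57BL/6 and 8 weeks old in both groups, and polyadenylated RNA was sequenced. The progenitors were sorted from bone marrow and gave 3 control libraries and 3 libraries of mice fasted for 6 h. The protocol in the labels speaks of RNA from ground tissue, not of sorted cells. Whether a library is a single mouse or a pool is not given, so p-values measure only the spread between these libraries, which may be technical.

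Cells sense a shortage of amino acids through the kinase GCN2, the product of Eif2ak4, which binds uncharged tRNA and phosphorylates the translation factor eIF2. General translation then slows, while the mRNA of Atf4 is translated better through its upstream open reading frames. ATF4 activates genes that make, import and charge amino acids, together with Ddit3 (CHOP), Trib3 and Ppp1r15a (GADD34), the last of which helps to dephosphorylate eIF2. In red cell precursors the haem-regulated kinase HRI, encoded by Eif2ak1, feeds the same factor. Much of this control acts on translation and on protein, which counts of mRNA do not measure.

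ATF4 binds with C/EBP partners to a composite element, written here as TGATGNAA. It was searched on both strands in RefSeq promoter windows of GRCm38.p6, each running from 250 bases before to 50 bases after a transcript's start. Windows were matched by symbol for 27 of the 35 genes, and 11 of the 27 (40.7%) held the element, against 1219 of 27025 genes in the whole table (4.51%). The genes were named as known targets of the pathway, so this share describes the choice of genes. Stretches of 30 bases before the start site are shown for some of the genes that held the element there, to let the shared letters be compared. They run 5′ to 3′ along the transcript with the element in capitals, and an element on the opposite strand reads TTNCATCA.
Asns, chr6:7693214-7693243, minus strand: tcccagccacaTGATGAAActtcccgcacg
Pycr1, chr11:120643833-120643862, minus strand: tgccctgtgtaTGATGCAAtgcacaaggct
Chac1, chr2:119351038-119351067, plus strand: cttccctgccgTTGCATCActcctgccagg
Tars, chr15:11399659-11399688, minus strand: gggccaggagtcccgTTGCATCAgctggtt
Gars, chr6:55037960-55037989, plus strand: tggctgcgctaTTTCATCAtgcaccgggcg
Pck2, chr14:55540152-55540181, plus strand: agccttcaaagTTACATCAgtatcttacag

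Chac1 and Tars carried the same TTGCATCA, and Pycr1 carried its reverse complement. The element began 23 bases before the start in Asns and 15 in Tars. A match describes letters in a window and does not show that a factor was bound there, and no match says only that the letters were not in this window.

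The libraries differed in ways that touch every value below. Total counts ran from 22445970 to 30246110 in control and from 12797144 to 18225191 in fasted libraries. Receptor genes of the nose (odorant and vomeronasal), known mainly from sensory neurons, took 0.162% to 0.358% of the counts in control and 0.480% to 0.608% in fasted libraries. These groups did not overlap, and the two-sided exact permutation p of 0.1 is the smallest that 3 against 3 libraries allow. The comparison therefore covered the 10641 genes whose mean count was at least 5 times this background. Control library 1 stood apart from the other control libraries, at -56.3 on a first principal component with 51.0% of the variance against -16.2 and -3.42. Fasted libraries lay between 20.5 and 27.9.

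Markers of the labelled cell type were present. Of 12 megakaryocyte-erythroid markers, 11 reached 5 times the background, among them Gata1, Klf1 and Car1, and their summed level was 2648 to 4809 counts per 1000000 counts in tested genes after TMM scaling (CPM) in control and 3721 to 5089.7 CPM in fasted libraries. All 15 granulocyte and monocyte markers also reached it. Their sum was 3757, 12496 and 19059.8 CPM in control libraries 1, 2 and 3 and 4646, 3148 and 1861 CPM in fasted libraries 1, 2 and 3. Of the markers of B, T and NK cells 3 of 11 reached it (72.6 to 112 CPM summed in control, 136 to 216 CPM in fasted libraries), of stem and multipotent cells 3 of 7, of mast cells, basophils and eosinophils 6 of 6, and of marrow stroma 1 of 6. No marker on these lists was at 0 in any library. The part of cell composition or background in the results below was not tested, and in bulk RNA fewer cells of a type cannot be told apart from less RNA per cell.

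**Figure D1:**
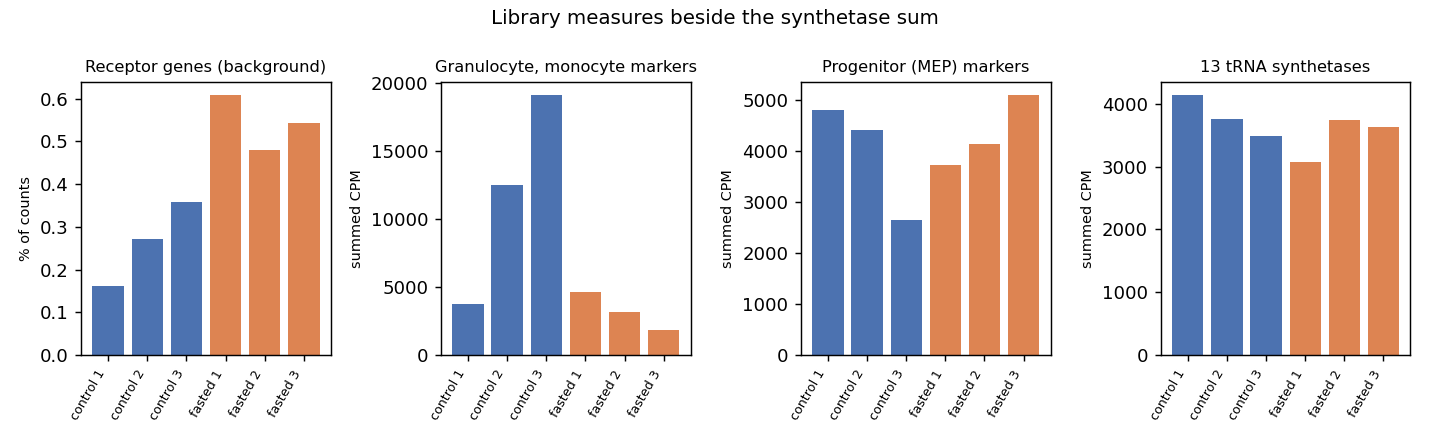
Bars give, for each of the 6 libraries, the share of counts in receptor genes (percent), and the summed CPM of granulocyte and monocyte markers, of progenitor markers and of the 13 tRNA synthetases; control libraries are blue and fasted ones orange. The receptor share was higher in every fasted library, the granulocyte sum was highest in control libraries 2 and 3, and the synthetase sum ran from 3079.9 to 4135 CPM over all 6.

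No gene of the group passed the comparison of fasted with control libraries. Of the 35 genes, 32 reached 5 times the background and were tested. At an adjusted p under 0.05 in edgeR's quasi-likelihood test, 0 of the 32 and 0 of all 10641 genes tested (0%) passed. At an unadjusted p under 0.05, 6 of the 32 had lower values in fasted libraries and 0 had higher values, where 8.3% of all genes tested were lower and 11.5% higher by that rule (19.8% in all). DESeq2 on the same genes called 503 of 10641 (4.73%; 3.07% higher and 1.65% lower) and 0 of the 32, and limma-voom called 0 of either. With any 1 library left out edgeR also called 0 of the 32; of all genes it called 0.0282% without control library 1, all lower, and 0.0282% without control library 3 (0.0094% higher and 0.0188% lower). The median log2 fold change was 0.02 over the 32 genes and 0.02 over all genes tested. Of the 32, 17 had a fold change above 0 and 15 below, from -0.62 for Slc1a5 to 0.91 for Trib3. The edgeR adjusted p of single genes ran from 0.156 to 0.957. The 95% interval lay within 0.5 of 0 on the log2 scale for 8 of the 32, and for the other genes it reached further in at least 1 direction.

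The genes that separated the groups lay mostly on the lower side. For 8 of the 32 genes (25%) every fasted library was below every control library, against 12.9% of all genes tested. These were Phgdh, Psat1, Psph, Mthfd2, Slc1a5, Eprs, Nars and Tars. Every fasted library was above every control library for 1 of the 32 (3.12%), Ppp1r15a, against 14.4% of all genes tested. With control library 1 left out these counts stayed at 8 and 1. They reached 11 lower and 5 higher without control library 3, and 8 lower and 5 higher without fasted library 1. With fewer libraries separation is easier by construction. The shares of all genes tested were not worked out with a library left out, so these counts cannot be set against the shares above.

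**Figure D2:**
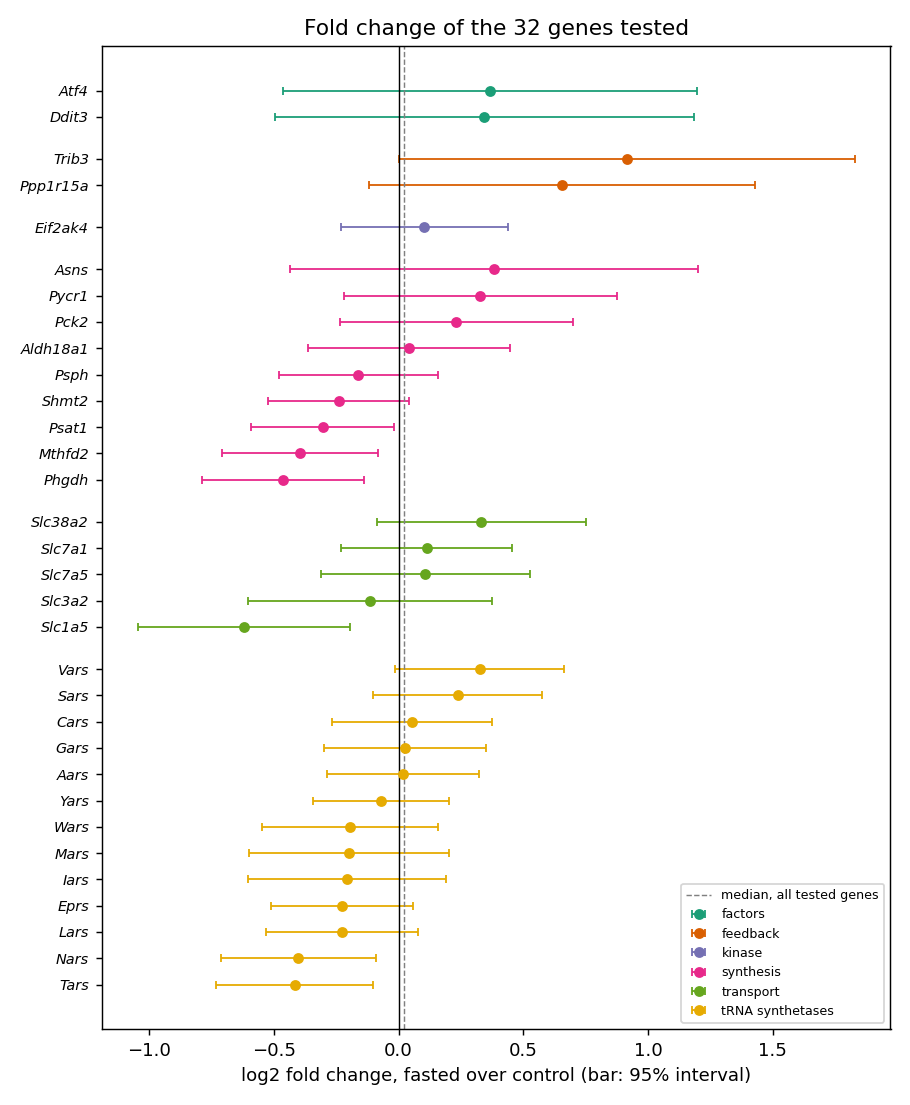
Points give the log2 fold change, fasted over control, of the 32 genes tested, by role, with 95% intervals from the edgeR fit; the dashed line is the median of all 10641 genes tested (0.02). The intervals of Slc1a5, Phgdh, Mthfd2, Psat1, Nars and Tars lay below 0 before adjustment for the number of genes, and the widest intervals, those of Trib3, Atf4, Ddit3, Asns and Ppp1r15a, reached 0 or crossed it.

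Atf4 itself (ENSMUSG00000042406.8, chromosome 15, 80255184 to 80257541, plus strand, GRCm38) was well expressed and did not separate the groups. It stood at 111, 239 and 288 CPM in control libraries 1, 2 and 3 and at 289, 330.2 and 204 CPM in fasted libraries 1, 2 and 3. Control library 1 was the lowest of the 6, and fasted library 3 lay below the other control libraries. On the log2 scale the fold change was 0.37 (SE 0.35, 95% interval -0.46 to 1.20) with an edgeR adjusted p of 0.586. Without control library 1 it was 0.06 (edgeR adjusted p 0.913), and with other libraries left out it reached up to 0.63.

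Ddit3, the gene of the stress factor CHOP (ENSMUSG00000025408.15, chromosome 10, 127290774 to 127296288), had the same order of libraries within the control group. Its values were 21.9, 42.7 and 65.3 CPM in control and 54.7, 66.1 and 43.9 CPM in fasted libraries. Fasted over control, the log2 fold change came to 0.34 (SE 0.36, edgeR adjusted p 0.619), and 0.02 without control library 1 (edgeR adjusted p 0.973). With other libraries left out it reached up to 0.75. An exon of Ddit3 shares bases with an exon of Mars on the other strand, and how the counting used strand is not given in the sources used here. A second row of the table with the symbol Ddit3, a short gene model, had 0 counts in all libraries and was not used.

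Atf5, the gene of a factor that is also controlled by upstream reading frames, had 28, 27 and 29 counts in control and 14, 6 and 19 counts in fasted libraries. Its mean was 0.754 times the background expected for its length, so these counts were not read as expression and it was not tested.

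Among the targets with feedback roles, Trib3, a pseudokinase that binds ATF4 and CHOP (ENSMUSG00000032715.9, chromosome 2, 152337422 to 152344032), had the largest fold change of the 32. It had 138, 76 and 208 counts in control and 138, 200 and 136 counts in fasted libraries, which came to 4.92, 3.22 and 10.5 CPM against 12.0, 12.8 and 10.2 CPM. Control library 3 lay above fasted library 3, so the groups overlapped. The log2 fold change came to 0.91 (SE 0.40, edgeR adjusted p 0.252). It was 0.57 without control library 2 and 1.49 without control library 3. Its mean was 5.15 times the background, just inside the limit, and the fold change was 0.95 with the background subtracted (edgeR adjusted p 0.367).

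Ppp1r15a, described here because its groups did not overlap, a choice made after its values were seen, stood at 203, 548 and 478 CPM in control and at 646, 691 and 598 CPM in fasted libraries. Control library 1 was far below the rest. On the log2 scale the fold change came to 0.65 (SE 0.33, edgeR adjusted p 0.315), and 0.33 without control library 1 (edgeR adjusted p 0.263). With other libraries left out the fold change of Ppp1r15a reached up to 0.89. Part of its exonic sequence is shared with Tulp2 on the other strand.

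Chac1, which encodes an enzyme that degrades glutathione, varied most within a group. It had 22, 50 and 219 counts in control and 75, 137 and 25 counts in fasted libraries, or 0.784, 2.12 and 11.1 CPM against 6.52, 8.74 and 1.88 CPM. The highest control library was 14.1 times the lowest, and the fasted libraries lay inside that range. Its mean was 3.94 times the background, just outside the limit, and it was not tested.

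The sensor kinase varied little between libraries. Eif2ak4 (ENSMUSG00000005102.13, chromosome 2, 118388618 to 118475234) stood at 41.3, 39.9 and 39.9 CPM in control and at 39.2, 46.2 and 44.7 CPM in fasted libraries, with a log2 fold change of 0.10 (SE 0.15, 95% interval -0.23 to 0.44, edgeR adjusted p 0.715). Of 14 other genes of eIF2 and its control, 13 were tested and 0 passed in either direction by edgeR, with a median log2 fold change of -0.05. The smallest p-values of that list belonged to Eif2s1, the eIF2 subunit that the kinases phosphorylate, at -0.37 (SE 0.15, edgeR adjusted p 0.230), and to Gcn1l1, an activator of GCN2, at 0.38 (SE 0.16, edgeR adjusted p 0.239). The haem-regulated kinase Eif2ak1 had 106, 110.0 and 81.0 CPM in control and 91.0, 111 and 109 CPM in fasted libraries and is named here after its values were seen.

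All 9 synthesis enzymes were tested and 0 passed by edgeR, with a median log2 fold change of -0.16. The 5 with a fold change below 0 were Phgdh, Psat1 and Psph, which make serine, and Shmt2 and Mthfd2, which move its one-carbon unit into the mitochondrial folate pool. The 4 above 0 were Asns, Pycr1, Aldh18a1 and Pck2, the last grouped here though it makes phosphoenolpyruvate and not an amino acid. This division by route was noticed in the values and carries no test. For the 5 lower genes the sign was the same in the main fit and in all 18 alternatives. Those include a fit of all genes that pass edgeR's filter, given below, whose scaling lowered fold changes and so favours this sign.

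Phgdh, the first enzyme of serine synthesis (ENSMUSG00000053398.11, chromosome 3, 98313170 to 98339990), had the highest mean level per kilobase over the 6 libraries. It stood at 655, 631 and 709 CPM in control and at 551, 498 and 399 CPM in fasted libraries. The groups did not overlap, and the log2 fold change was -0.46 (SE 0.14, 95% interval -0.79 to -0.14, edgeR adjusted p 0.159). Mthfd2, a mitochondrial dehydrogenase of folates (chromosome 6, 83305691 to 83325908), had 72.4, 68.1 and 77.0 CPM in control and 52.1, 61.1 and 52.2 CPM in fasted libraries. It differed by -0.39 on the log2 scale (SE 0.14, edgeR adjusted p 0.186), again without overlap. Psat1, the aminotransferase that follows Phgdh (chromosome 19, 15904678 to 15947337), had 227, 177 and 208 CPM in control and 165, 172 and 159 CPM in fasted libraries. Its groups were close, with control library 2 only just above fasted library 2, and the log2 fold change came to -0.30 (SE 0.13, edgeR adjusted p 0.234).

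Asns, the asparagine synthetase whose promoter element is shown above (ENSMUSG00000029752.12, chromosome 6, 7675169 to 7693254), stood at 314, 437 and 206 CPM in control and at 249, 477 and 522 CPM in fasted libraries. Both groups were spread about equally, with the highest library 2.12 times the lowest in control and 2.10 times in fasted libraries. Fasted over control, the log2 fold change was 0.38 (SE 0.35, 95% interval -0.43 to 1.20, edgeR adjusted p 0.563). With 1 library left out it ran from 0.12 without control library 3 to 0.65 without fasted library 1. Its libraries did not follow the order of Atf4: control library 3 had the highest control level of Atf4 and the lowest of Asns. Psph, Shmt2, Aldh18a1, Pycr1 and Pck2 had log2 fold changes from -0.24 to 0.33 with edgeR adjusted p between 0.315 and 0.914. Pycr1 lay at 5.48 times the background, and Pck2, Psph and Shmt2 share exonic bases with a gene on the other strand.

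Of the 6 transporters 5 were tested and 0 passed by edgeR, with a median log2 fold change of 0.11. Slc1a5, a carrier of glutamine and other neutral amino acids (ENSMUSG00000001918.17, chromosome 7, 16781340 to 16798274), had the lowest fold change and the smallest p of the 32 genes. It stood at 397, 239.8 and 313 CPM in control and at 234, 205 and 178 CPM in fasted libraries. The groups did not overlap, though control library 2 and fasted library 1 were close. The log2 fold change was -0.62 (SE 0.19, 95% interval -1.05 to -0.19, edgeR adjusted p 0.156), and -0.42 without control library 1 (edgeR adjusted p 0.243). With other libraries left out it went as low as -0.82.

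Slc38a2 (SNAT2), a sodium-coupled carrier that is itself a target of the amino acid response (chromosome 15, 96687392 to 96699730), had 143, 194 and 224 CPM in control and 231, 277 and 198 CPM in fasted libraries. Only fasted library 3 lay within the control range, and the log2 fold change came to 0.33 (SE 0.19, edgeR adjusted p 0.346), and 0.17 without control library 1 or without fasted library 2. With other libraries left out it reached up to 0.46. Slc7a1, a carrier of cationic amino acids (chromosome 5, 148327410 to 148399904), had 76.0, 76.2 and 102 CPM in control and 86.8, 97.3 and 90.6 CPM in fasted libraries, all 3 within the control range. It differed by 0.11 on the log2 scale (SE 0.15, edgeR adjusted p 0.702). Slc7a5 and Slc3a2, the light and heavy chains of the large neutral amino acid exchanger, had log2 fold changes of 0.11 and -0.11 (edgeR adjusted p 0.769 and 0.788). Slc1a4, a carrier of alanine, serine and cysteine, lay at 4.11 times the background with 125 to 314 counts per library and was not tested.

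All 13 cytosolic tRNA synthetases, the enzymes that attach amino acids to tRNA, were tested and 0 passed by edgeR. Their median log2 fold change was -0.19, with 8 below 0 and 5 above. With 1 library left out the median ran from -0.26 to -0.05, the latter without control library 1. Tars, for threonine (ENSMUSG00000022241.6, chromosome 15, 11382301 to 11399665), stood at 293, 238 and 277 CPM in control and at 172, 219.7 and 213 CPM in fasted libraries. On the log2 scale the fold change was -0.42 (SE 0.14, 95% interval -0.73 to -0.10, edgeR adjusted p 0.171). Nars, for asparagine (ENSMUSG00000024587.10, chromosome 18, 64499647 to 64516652), had 575, 479 and 574 CPM in control and 371, 468 and 393 CPM in fasted libraries. It differed by -0.40 on the log2 scale (SE 0.14, edgeR adjusted p 0.176). Neither gene overlapped between the groups, and in both, fasted library 1 was the lowest.

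Vars, for valine (ENSMUSG00000007029.16, chromosome 17, 35000987 to 35016322), lay on the other side of 0. It stood at 335, 426 and 297 CPM in control and at 411, 451 and 463 CPM in fasted libraries, where control library 2 was above fasted library 1. Fasted over control, the log2 fold change came to 0.32 (SE 0.15, edgeR adjusted p 0.270). Sars, Cars, Gars and Aars, for serine, cysteine, glycine and alanine, had log2 fold changes of 0.24, 0.05, 0.03 and 0.02. Yars, Wars, Mars, Iars, Lars and Eprs, for tyrosine, tryptophan, methionine, isoleucine, leucine, and glutamate with proline, had -0.07, -0.19, -0.20, -0.21, -0.23 and -0.23. The edgeR adjusted p of these 10 ran from 0.345 to 0.957. Every fasted library of Eprs was below every control library, at 441 to 541 CPM against 559 to 624 CPM. The exons of Aars overlap those of Exosc6 on the same strand, which can add or remove reads by the counting rule.

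No synthetase gene outside the 13 passed either. Of 10 other cytosolic synthetase and complex genes, all tested, 0 passed by edgeR, the median log2 fold change was -0.16, and 7 lay below 0. The smallest p-values were those of Dars, for aspartate, at -0.38 (SE 0.13, edgeR adjusted p 0.171) and Rars, for arginine, at -0.32 (SE 0.14, edgeR adjusted p 0.242). Of 17 synthetases of mitochondria, which charge the tRNAs encoded there, 0 passed, the median was 0.01, and 8 lay below 0. By p-value Wars2 came first, at 0.53 (SE 0.19, edgeR adjusted p 0.192), and then Lars2, at 0.36 (SE 0.15, edgeR adjusted p 0.238). Rars2, named here after its values were seen, came next on the lower side, at -0.40 (SE 0.17, edgeR adjusted p 0.239). Whether the cytosolic and mitochondrial enzymes differ was not tested.

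Of 25 further genes of the pathway, 12 were tested and 0 passed by edgeR, with a median log2 fold change of 0.08. The other 13, among them Fgf21, Gdf15, Slc7a11 and Cth, lay below 5 times the background. Shmt1, the cytosolic partner of Shmt2, had the smallest p, with 146, 85.8 and 136 CPM in control and 83.7, 58.2 and 62.2 CPM in fasted libraries. It differed by -0.85 on the log2 scale (SE 0.22, edgeR adjusted p 0.143), without overlap. Sesn2, an inhibitor of mTORC1 that senses leucine, had 24.7, 26.0 and 27.4 CPM in control and 30.6, 39.4 and 40.7 CPM in fasted libraries. It differed by 0.51 on the log2 scale (SE 0.18, edgeR adjusted p 0.186), also without overlap.

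The libraries that stood highest or lowest differed between genes. Atf4, Ddit3, Ppp1r15a and Slc38a2 were lowest in control library 1, by up to 1.28 on the log2 scale below the mean of the 6 libraries for Ppp1r15a. Pycr1 was also lowest there, as were Slc7a5 and Slc7a1 by a narrow margin. Atf3, a stress factor downstream of ATF4 that is also an immediate early gene and is named here after its values were seen, had 1.89 CPM in control library 1 and 111 to 284 CPM in the other 5. Averaged over the 13 synthetases, control library 1 was the highest, at 0.19 above the mean of the 6 libraries on the log2 scale, and fasted library 1 the lowest, at -0.22. Asns and Pck2 were lowest in control library 3, Trib3 in control library 2, and Phgdh and Slc1a5 in fasted library 3. Granulocyte and monocyte markers, whose sums are given above, were also low in control library 1 against the other control libraries, and their part in these values was not tested.

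**Figure D3:**
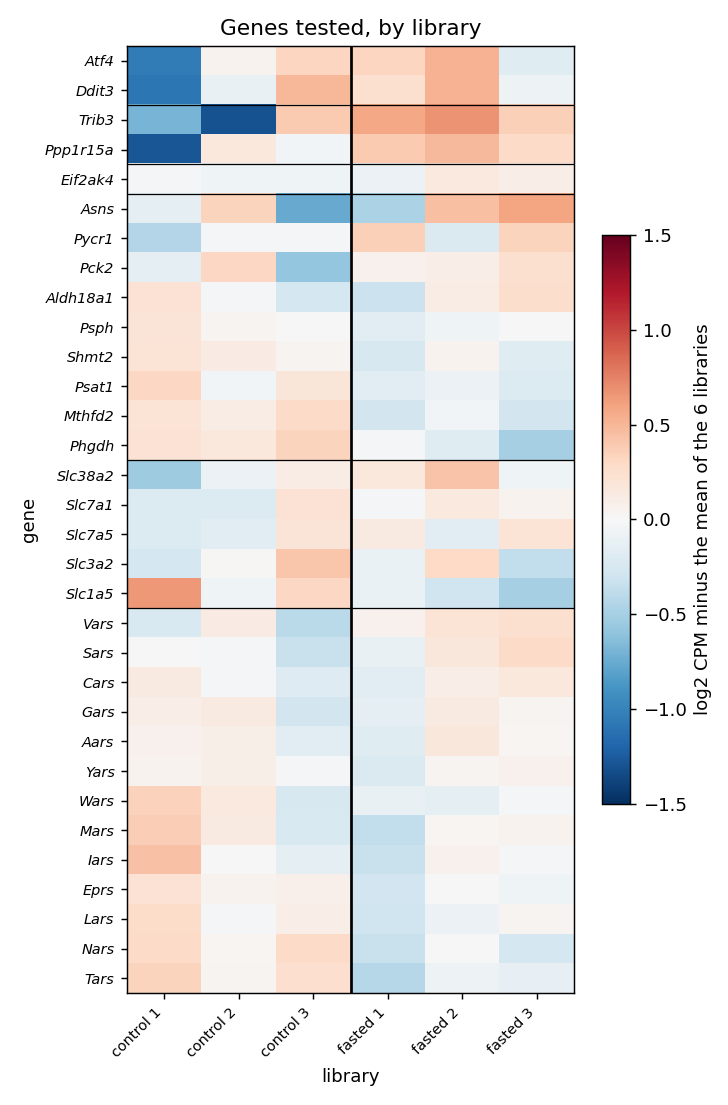
Colour gives log2 CPM minus the mean of the 6 libraries (scale -1.5 to 1.5) for the 32 genes tested. Rows are genes by role, with a line between roles, and columns are the 6 libraries. Atf4, Ddit3 and Ppp1r15a were low in control library 1, where most synthetases were above their mean.

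Across genes, levels were compared per kilobase of exon, as CPM per kilobase averaged over the 6 libraries. Phgdh led at 231, followed by Ppp1r15a at 179.6. Their order differed between the groups, with means of 267 for Phgdh and 139.5 for Ppp1r15a in control and of 194 and 219.6 in fasted libraries. Next came Asns at 134, Slc3a2 at 119.5, Nars at 109, Shmt2 at 108 and Atf4 at 103 CPM per kilobase. The spread of Asns, Slc3a2, Nars, Shmt2 and Atf4 between libraries was larger than the gaps between neighbours in this order. The synthetases ran from 19.1 CPM per kilobase for Cars to 109 for Nars. Pycr1 and Trib3, both at 4.21, were the lowest of the genes tested. Within groups, the highest library was 1.34 times the lowest in the median gene tested in control and 1.26 times in fasted libraries.

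**Figure D4:**
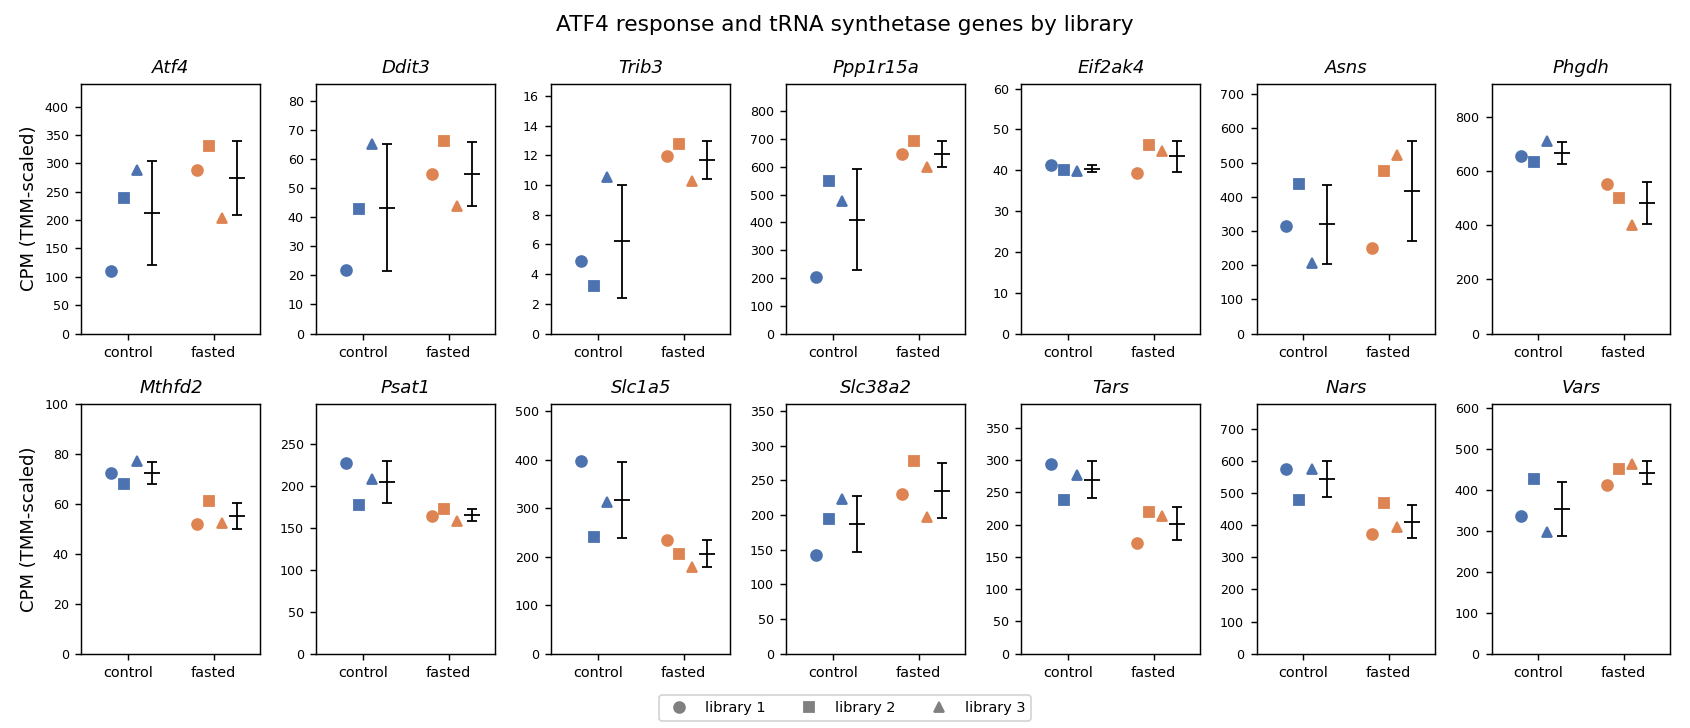
Points give CPM after TMM scaling in each library for 14 of the genes, with control in blue and fasted in orange, a marker shape for each library number, and a black dash and bar for the mean and SD of 3 libraries; each vertical axis starts at 0. Phgdh, Mthfd2, Psat1, Slc1a5, Tars and Nars were lower in every fasted library, while Atf4, Ddit3 and Asns overlapped between the groups.

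Genes with and without the promoter element are given side by side. Of the 9 genes with the element that were tested, 6 had a log2 fold change above 0, from -0.42 for Tars to 0.91 for Trib3, with a median of 0.03. The 15 tested genes whose window lacked the element had a median of 0.04, and 8 were above 0. The difference was not tested.

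Calls among these genes depended on which genes entered the fit, which sets the scaling, the dispersion estimates and the number of tests together. When all 36508 genes that pass edgeR's filter were scaled and tested together, most of them near the background, edgeR called 6 of the 35 genes as lower and 0 as higher, against 3.82% and 1.15% of all genes in that fit (4.97% in all). The 6 were Slc1a5, Phgdh, Mthfd2, Nars, Tars and Psat1, the same 6 that had an unadjusted p under 0.05 in the main fit, with edgeR adjusted p between 0.031 and 0.046. In that fit the median log2 fold change of the 10641 genes above the background was -0.50, and 12.9% of them were called lower and 0.0752% higher, against 18.8% and 0 of the 32. Slc1a5 stood at -1.15 and Phgdh at -0.97 there, both below that median. Of the 32 genes, 13 had a fold change below 0 in the main fit and in all 18 alternatives, and 2, Trib3 and Ppp1r15a, were above 0 in all of them. The alternatives include the fit of all filtered genes, whose median of -0.50 makes it easier to stay below 0 than above it. Atf4, Ddit3, Asns, Pycr1, Pck2, Slc38a2, Sars and Vars fell below 0 in that fit alone. The 2 tallies are therefore not comparable.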

How the data were processed

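The values are raw gene counts that the authors deposited, listed beside gene lengths, for 3 control and 3 fasted libraries of polyadenylated RNA. HISAT2 2.2.1, featureCounts 2.0.1 and GRCm38 are named in the submitters' processing notes; annotation, strand and read filters are not given in the sources used here. Symbols and positions came from GENCODE M21 (GRCm38): 54435 of 55487 identifiers matched with their version, all with the deposited length. Of the 35 genes, 34 did (Yars under another version). The labels name no batch. Members and lists were chosen with earlier results of these data known.

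Background was the summed count per kilobase of 1466 protein-coding odorant and vomeronasal receptor genes. Genes passing filterByExpr with a mean count of at least 5 times background entered edgeR 4.0.16 (R 4.3.3; TMM, estimateDisp, glmQLFit, robust, group only), with Benjamini-Hochberg adjustment over 10641 genes and calls under 0.05. CPM is the count per 1000000 counts in tested genes, TMM-scaled. SE is the fold change divided by the root of F. Total counts were 12797144 to 30246110. DESeq2 1.42.0 and limma 3.58.1 (voom) were alternatives. Genes given with full values by rule were Atf4, Atf5, Ddit3, Asns, Chac1, Trib3, Eif2ak4 and the 3 with the smallest p among synthesis enzymes, transporters and synthetases. Of each other pathway list, the 2 with the smallest p were named, not all with values by library.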

Additional observations from a re-analysis of the deposited data

How the results depend on the processing

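No alternative except scaling and testing all genes that pass the filter together called any of the 32 genes; there edgeR called 6 lower. That fit also called 3 of the 10 other cytosolic synthetase genes and 1 of the 17 mitochondrial synthetases. It called 1 of the 14 listed eIF2 genes and 1 of the 25 listed further pathway genes as well, and all these calls were lower. Of the 10641 genes above the background, that fit called 12.9% lower and 0.0752% higher, with a median log2 fold change of -0.50. DESeq2 called 1 of the 12 further pathway genes tested as lower, against 1.65% of all genes tested. Over all genes, calls higher and lower were 420 and 1393 in that fit, 327 and 176 with DESeq2, 1 and 5 at 3 times the background, and 0 and 2 at an adjusted p under 0.10. With 1 library left out they ran from 0 to 1 higher and from 0 to 3 lower (3 lower without control library 1, 1 higher and 2 lower without control library 3). With 1 library left out, genes of the group that separated the groups ran from 1 to 5 as higher and from 8 to 11 as lower. The matching shares of all genes were not worked out.

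With all filtered genes scaled and tested together, which also adds the genes near the background to each list, the median log2 fold change was -0.50 for the group, 0.19 for the 3 feedback targets (0.32 for the 2 tested in both fits), -0.69 for synthesis enzymes, -0.39 for transporters, -0.74 for synthetases, -0.69 for the other cytosolic ones, -0.54 for mitochondrial ones, -0.53 for eIF2 genes and 0.32 for all 36508 genes (-0.50 for the 10641 tested in both). At 3 times the background it was -0.093 for the group, -0.29 for synthesis enzymes, -0.28 for other cytosolic synthetases and -0.14 for eIF2 genes. Upper-quartile factors gave 0.090 for all genes. With 1 library left out it ran from -0.089 to 0.084 for the group and from -0.14 to 0.00055 for eIF2 genes.

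Some single genes changed sign, among them Asns, Atf4, Ddit3, Slc38a2, Pycr1 and Vars, which had main values of 0.32 to 0.38. Over all filtered genes the changed values were Atf4 -0.079, Ddit3 -0.094, Eif2ak4 -0.41, Asns -0.15, Aldh18a1 -0.50, Pycr1 -0.19, Pck2 -0.30, Slc7a5 -0.40, Slc7a1 -0.38, Slc38a2 -0.14, Aars -0.50, Cars -0.48, Gars -0.50, Sars -0.30 and Vars -0.20. At 3 times the background they were Eif2ak4 -0.020, Aldh18a1 -0.085, Slc7a5 -0.018, Slc7a1 -0.0081, Aars -0.11, Cars -0.073 and Gars -0.10, and at 10 times Yars 0.0053. Aars was -0.0061 with RLE factors, -0.0060 with DESeq2 and -0.017 with library totals, where Gars was -0.0082. With 1 library left out, Aldh18a1 ran from -0.097 to 0.19, Slc3a2 from -0.34 to 0.064, Aars from -0.099 to 0.11, Cars from -0.051 to 0.15, Gars from -0.12 to 0.097 and Yars from -0.14 to 0.012. Of 573 such values 526 kept sign and side of the threshold, 41 changed sign and 6 newly passed; the cause was not tested.

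The replicate number as a block called 0 of 32 genes and 0 of all genes, as without it (median log2 fold change 0.02 for the group). Deviations of same-numbered libraries correlated at -0.16, 0.13 and -0.27, and not every library correlated best with its own number, so the numbers were not treated as pairs. The receptor share differed by 0.229 to 0.326 percentage points with 1 library left out. Libraries of 1 group differed by more than counting noise (chi-square per degree of freedom 22.4 to 157). This is a single value for each pair of libraries and not a value for each gene. The part of counting depth in the spread of single genes was not tested.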
